A study of Homo sapiens with 16 samples.

Results

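The genes described here encode 41 proteins of homologous recombination, the Fanconi anaemia pathway and the checkpoint kinases that act with them, in a human line of triple-negative breast cancer, MDA-MB-231. Every row of the deposited gene count table with 1 of these 41 symbols was taken, which gave 41 of the 37864 genes in the table, 1 row each, and all 41 had enough counts to be among the 17991 genes tested. The cells had been given afatinib, an irreversible inhibitor of the EGFR family kinases, paclitaxel, a drug that stabilises microtubules, afatinib and paclitaxel together (the combination), or DMSO, the vehicle, with 4 libraries of total RNA in each group. All groups share the 1 cell line and carry no genetic change made for the study, and the labels used here give no dose, exposure time or culture of origin, so p-values measure the spread between these libraries, which may be technical.

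Homologous recombination repairs a DNA double-strand break by copying from the sister chromatid. The broken ends are first resected to single strands, BRCA1, PALB2 and BRCA2 act on those strands, and the joint molecules that follow are dissolved or cut. The Fanconi pathway acts when both DNA strands are crosslinked: a core complex attaches ubiquitin to FANCD2 and FANCI, which directs the crosslink's removal and hands the resulting break to recombination. Many genes of these pathways are transcribed most strongly while cells copy their DNA in S phase.

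The libraries held 28.4M to 48.1M counts each (median 42.7M), of which 49892 to 97824 fell on the 41 genes. Replicates 1 and 2 of every group carried labelled RNA concentrations of 345.6 to 1290.9 ng/µl and replicates 3 and 4 of 118 to 330 ng/µl, and 69.5% of all tested genes differed between these 2 sets. The set was therefore a term in the fit unless another is named, and values are given in the order of replicates 1 to 4 so that like can be set beside like. Summed markers of the line (VIM, CD44, EGFR, AXL, CAV1) lay between 666 and 1090 RPKM, blood markers at no more than 0.0658 RPKM, fibroblast markers between 1.32 and 3.02 RPKM and endothelial markers between 0.379 and 1.41 RPKM. The luminal breast markers summed to 102 to 151 RPKM, nearly all of it keratin KRT8, while ESR1 did not exceed 0.036 RPKM.

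Levels are CPM, the counts relative to library size and TMM factor, and differences are log2 fold changes ± SE with adjusted p-values from edgeR's quasi-likelihood F-test, Benjamini-Hochberg adjusted over all 17991 genes and called at 0.05. Per length, levels in DMSO libraries ran from RAD51D at 1.68 ± 0.0694 RPKM to UBE2T at 60.3 ± 9.36 RPKM (SD, n = 4). TOP3A (32.9 ± 1.12 RPKM), RAD51AP1 (23.6 ± 2.00 RPKM), NBN (17.6 to 21.9 RPKM in the 4 libraries) and EXO1 (16.6 ± 1.70 RPKM) followed UBE2T at the top. The spread of NBN overlapped with that of both RAD51AP1 and EXO1. RAD54B (1.82 ± 0.119 RPKM) and GEN1 (1.92 ± 0.542 RPKM) were next to RAD51D at the bottom, and neither could be ordered against it beyond its spread.

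Over the 4 groups together, 34 of the 41 members differed at an adjusted p under 0.05, where 52.6% of all tested genes did. Much of this repertoire was lower with paclitaxel and with the combination, and little of it changed with afatinib. In paclitaxel libraries 18 of the 41 members fell and none rose against DMSO, with a median log2 change of −0.17, where 11.9% of all tested genes fell and 8.65% rose with a median of −0.001. Beside the count of 0, 1 member was higher at an unadjusted p under 0.05, DESeq2 called 0 and the fit with replicate number as a block called 1, EME1 (0.21, adjusted p = 0.0344). In afatinib libraries 2 members fell (FANCE, FANCG) and 4 rose (BRCA1, RAD54L, RAD50, CHEK2), with a median of 0.021, where 10.1% of all tested genes fell and 9% rose; both shares of members lie near or under that background. In combination libraries 21 members fell and 6 rose with a median of −0.188, where 38% of all tested genes were called, 19.5% lower and 18.5% higher, with a median of −0.005.

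Each member called against DMSO in any of the 3 treatments had the same sign within replicates 1 and 2 and within replicates 3 and 4. Within both sets at once, 23 members lay in paclitaxel libraries entirely below their DMSO libraries and 0 entirely above, where 14.3% and 11.5% of all tested genes did so. The same count in combination libraries was 22 members below and 6 above (19.7% and 18% of all genes), and in afatinib libraries 4 below and 6 above (14.9% and 12.9%). Summed over the 41 members, afatinib libraries held 2040 ± 107 CPM, paclitaxel libraries 1740 ± 76.7 CPM and combination libraries 1780 ± 98.6 CPM, against 2030 ± 120 CPM in DMSO libraries (SD, n = 4 each). Since these are bulk cultures, fewer cells in S phase and less RNA per cell cannot be told apart. In the authors' deposited log2 table, analysed with limma, the calls of BRCA1, RAD54L, RAD50 and FANCG with afatinib ended (adjusted p = 0.142, 0.101, 0.109 and 0.223). In the same table those of RAD51D, RMI1 and FANCC with paclitaxel ended (adjusted p = 0.0932, 0.0707 and 0.0714). With the combination those of BRCA1, XRCC3 and RAD50 did (adjusted p = 0.101, 0.0944 and 0.0733). Calls were fewer over all tested genes too: 6.16% with afatinib, 6.38% with paclitaxel and 22.6% with the combination. The edgeR fit with the set term called 19.1%, 20.5% and 38% in the same order. Other calls against DMSO that ended in the authors' table are given with their genes below. For the combination against each single drug, ended calls are not named, and only the counts in that table are given.

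**Figure D1:**
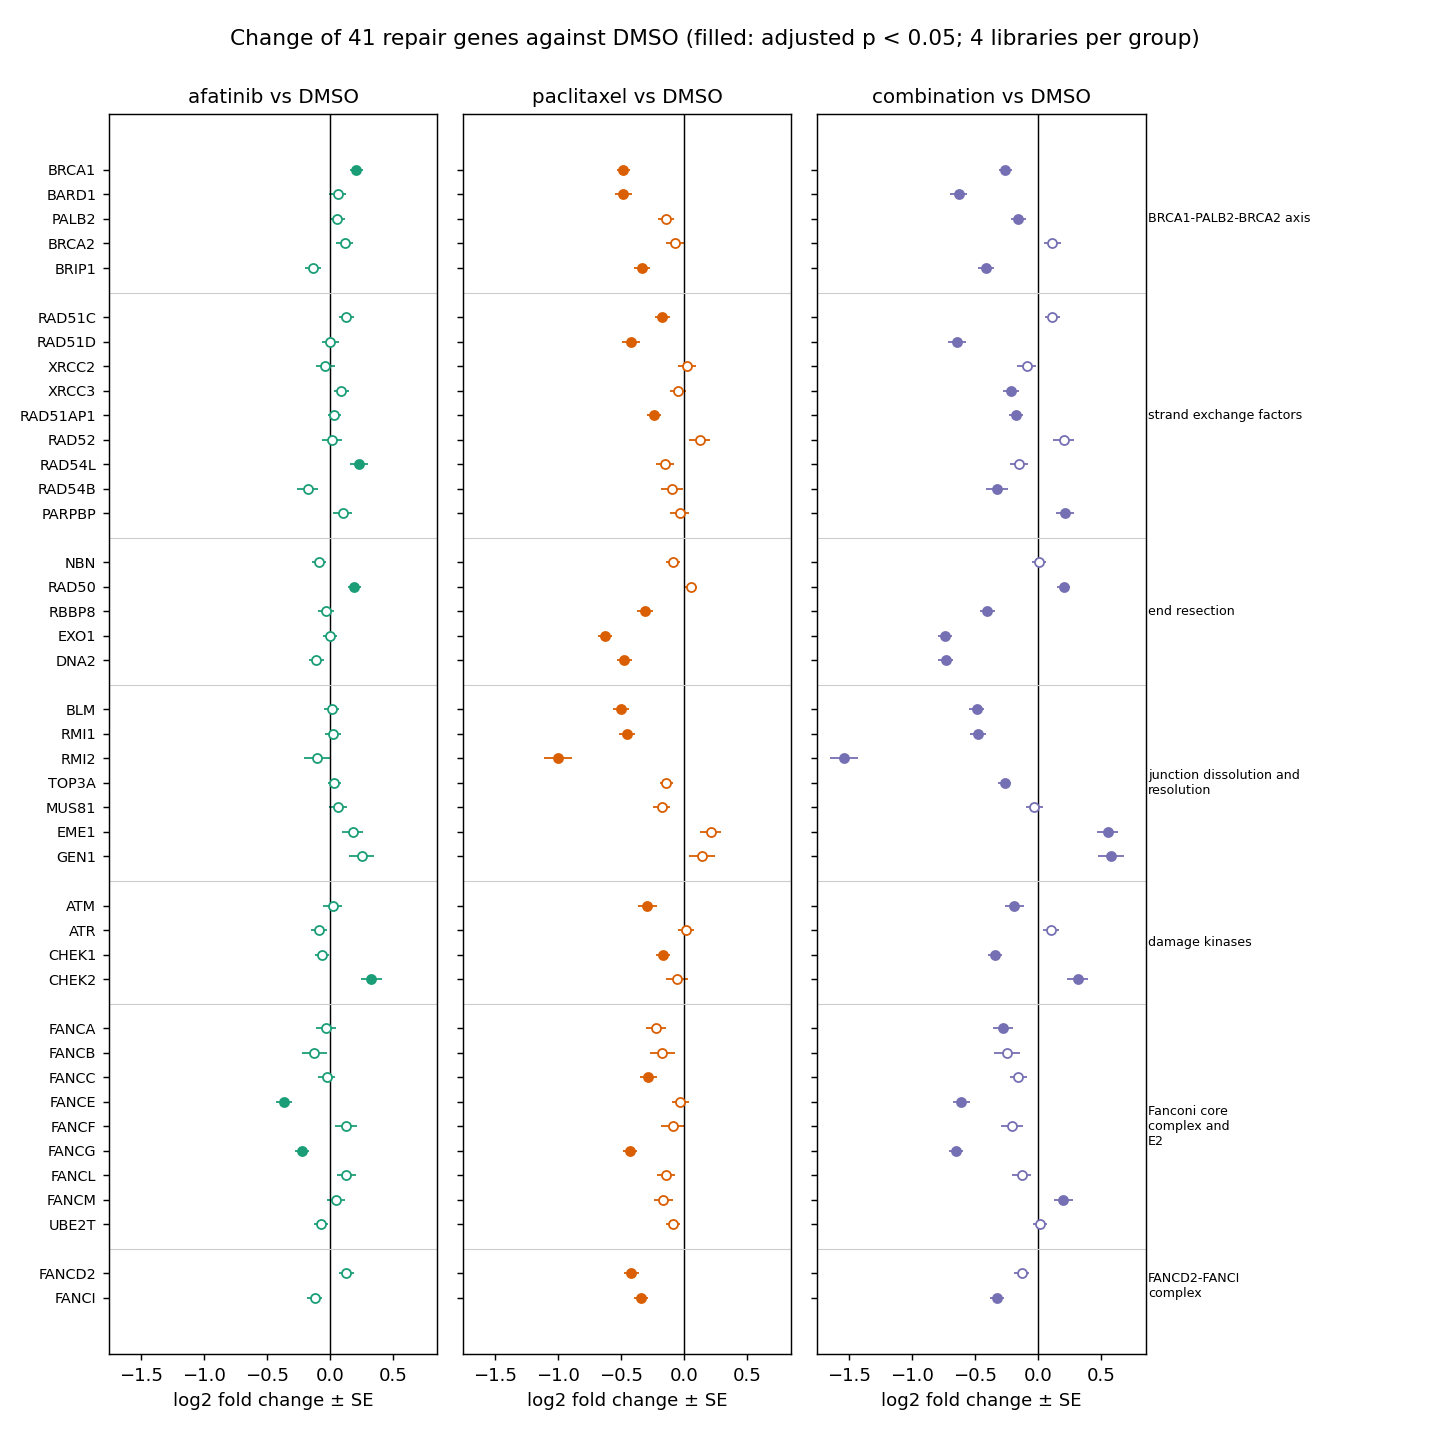
Log2 fold change against DMSO (x axis, ± SE, 4 libraries per group) of the 41 members, grouped by role, after afatinib, paclitaxel and the combination. Filled points passed an adjusted p of 0.05; paclitaxel has 18 filled points, all left of 0, and the combination has 21 left and 6 right of 0, with RMI2 farthest left at −1.54 and GEN1 farthest right at 0.57.

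Promoter sequence is shown for the 4 members that have values by library below under the rule for named genes and a promoter window without any annotated exon base: BRIP1 and FANCE, lower in combination libraries, RAD54L, higher only with afatinib alone among the calls against DMSO, and FANCM, higher in combination libraries. The calls of RAD54L and FANCM were lost in some fits, given with these genes below. Each sequence is the 250 bases before the start of transcription from the RefSeq promoter table (GRCh38.p14), given along the gene's own strand. They lie at chr17:61863529-61863778 on the minus strand for BRIP1, chr1:46247438-46247687 on the plus strand for RAD54L, chr6:35452088-35452337 on the plus strand for FANCE and chr14:45135680-45135929 on the plus strand for FANCM. Capitals mark 2 motifs sought on both strands: an E2F core, the letters that E2F factors of S phase transcription bind (TTCGCGC in its plainest form, with TTGGCGC as a second form, TTCCCGC as another and TTGCCGC as the last), and a CHR element, the letters TTTGAA or TTCGAA found in many genes of late cell cycle. The first motif was matched in RAD54L, 49 bases before the start, and the second in BRIP1, 240 bases before it and on the other strand, while FANCE and FANCM held neither.
BRIP1: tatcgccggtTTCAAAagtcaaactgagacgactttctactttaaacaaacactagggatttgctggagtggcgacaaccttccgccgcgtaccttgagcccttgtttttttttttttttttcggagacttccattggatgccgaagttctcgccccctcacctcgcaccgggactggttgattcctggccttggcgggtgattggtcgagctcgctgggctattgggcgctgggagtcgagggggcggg
RAD54L: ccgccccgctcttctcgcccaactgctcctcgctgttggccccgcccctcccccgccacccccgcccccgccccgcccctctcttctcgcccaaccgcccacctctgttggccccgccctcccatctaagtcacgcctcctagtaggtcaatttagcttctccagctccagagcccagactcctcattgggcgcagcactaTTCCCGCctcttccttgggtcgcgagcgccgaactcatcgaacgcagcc
FANCE: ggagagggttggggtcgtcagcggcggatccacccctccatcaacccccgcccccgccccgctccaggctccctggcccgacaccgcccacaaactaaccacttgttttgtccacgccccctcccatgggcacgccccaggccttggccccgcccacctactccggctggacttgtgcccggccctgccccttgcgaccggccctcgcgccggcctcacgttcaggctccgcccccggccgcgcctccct
FANCM: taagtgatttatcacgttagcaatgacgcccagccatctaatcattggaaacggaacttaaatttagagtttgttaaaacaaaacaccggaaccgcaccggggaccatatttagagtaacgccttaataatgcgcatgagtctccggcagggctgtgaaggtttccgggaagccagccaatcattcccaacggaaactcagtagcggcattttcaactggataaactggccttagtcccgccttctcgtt
Of the 36 members with a window in the table, 13 (36.1%) held the E2F core, against 3009 of all 27305 genes there (11%). The CHR element was held by 5 members (13.9%), against 14.6% of all genes there. Each of those genes, expressed here or not, was represented by its first listed window. A member's window was instead the one with the most annotated starts within 50 bases, so the shares are not strictly alike. A CCAAT box (CCAAT, either strand) was in 17 members (47.2%), against 33% of the first listed windows of all genes. On the other strand the CCAAT box reads ATTGG, whose letters can overlap with TTGGCGC, and a match is a string of letters, not an occupied site. Among the 13 members with the E2F core, 7 fell in paclitaxel libraries (median log2 change −0.24) and 8 fell and 1 rose in combination libraries (−0.26). Among the 23 without it, 8 fell in paclitaxel libraries (−0.14), and 9 fell and 5 rose in combination libraries (−0.13). Of all tested genes, 11.9% fell with paclitaxel, and 19.5% fell and 18.5% rose with the combination. The 7-letter core that splits the members was chosen after the windows were read, since an 8-letter version matched only 3 members. These counts are a description, with no test of the difference.

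BRCA1 rose with afatinib and fell with paclitaxel, and its partners BARD1 and BRIP1 fell with paclitaxel and with the combination. BRCA1, the ubiquitin ligase that brings the recombination machinery to breaks, had 77.6, 77.7, 86.5 and 76.1 CPM in afatinib libraries, 47.5, 48.8, 49.9 and 50.8 CPM in paclitaxel libraries and 55.2, 53.9, 60.3 and 60.4 CPM in combination libraries, against 70, 61.8, 72.1 and 71.2 CPM in DMSO libraries. Its afatinib libraries were all above and its paclitaxel and combination libraries all below every DMSO library. The log2 change was 0.21 ± 0.053 (adjusted p = 0.00705) with afatinib, −0.48 ± 0.054 (adjusted p = 4.91e-07) with paclitaxel and −0.26 ± 0.054 (adjusted p = 0.000401) with the combination. The combination libraries lay between those of the single drugs, with a log2 difference of −0.47 ± 0.054 (adjusted p = 3.08e-07) from afatinib and of 0.22 ± 0.054 (adjusted p = 0.00395) from paclitaxel.

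BARD1, the ligase partner without which BRCA1 protein is unstable, had 30.1, 36.8, 30.3 and 33.3 CPM in afatinib libraries, 21.8, 21.6, 23.8 and 22.5 CPM in paclitaxel libraries and 18.7, 18.8, 21.3 and 22.1 CPM in combination libraries, against 30.8, 30.1, 33.4 and 30.9 CPM in DMSO libraries. Paclitaxel and combination libraries lay apart from and below both other groups, and afatinib overlapped with DMSO. The change was −0.48 ± 0.069 (adjusted p = 1.52e-05) with paclitaxel and −0.63 ± 0.069 (adjusted p = 7.35e-08) with the combination. BRIP1, the helicase bound to BRCA1 and itself a Fanconi gene, had 48.5, 52.7, 69.1 and 67.2 CPM in afatinib libraries, 44.5, 50.6, 54.4 and 56.1 CPM in paclitaxel libraries and 45.8, 43, 51.8 and 54.2 CPM in combination libraries, against 58.6, 51.5, 78.5 and 72.6 CPM in DMSO libraries. All 4 paclitaxel and all 4 combination libraries were below the DMSO libraries of their own set, though the sets overlap. BRIP1 changed by −0.33 ± 0.064 (adjusted p = 0.000508) with paclitaxel and −0.41 ± 0.064 (adjusted p = 1.31e-05) with the combination.

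The other 2 members of this group differed. PALB2, which bridges BRCA1 to BRCA2, was called in the combination (−0.16 ± 0.061, adjusted p = 0.0435), and not with paclitaxel alone (−0.14, adjusted p = 0.104, and 0.0491 with the replicate block). The first call was lost without afatinib 1, 2 or 3, paclitaxel 1, combination 1, 2 or 4 or DMSO 1 or 3 (adjusted p 0.0506 to 0.188). The value was −0.06 with log2 RNA concentration in place of the set (adjusted p = 0.533) and −0.046 in the authors' deposited log2 table by limma (adjusted p = 0.714). BRCA2, the breast cancer susceptibility protein that PALB2 brings to breaks, was not called in any treatment comparison tested: its log2 change was 0.12 with afatinib, −0.07 with paclitaxel and 0.11 with the combination (adjusted p = 0.26, 0.518 and 0.211). Between combination and paclitaxel BRCA2 was 0.18 ± 0.069 (adjusted p = 0.0532), and with replicate number as a block this became a call (adjusted p = 0.0281).

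Among the 9 strand exchange factors, 3 fell with paclitaxel and 4 fell with the combination, with 1 rise in each of afatinib and the combination. Of all tested genes, 11.9% fell with paclitaxel, 19.5% fell and 18.5% rose with the combination, and 9% rose with afatinib. RAD51D, a subunit of the BCDX2 complex, had 21.3, 19.4, 17.02 and 18.3 CPM in afatinib libraries, 15.6, 13.3, 13.2 and 14.5 CPM in paclitaxel libraries and 12.5, 12.3, 11.99 and 11.8 CPM in combination libraries, against 19.7, 18.99, 19.3 and 17.9 CPM in DMSO libraries. Its combination libraries were the lowest, all below the paclitaxel libraries, which were all below DMSO. The change was −0.42 ± 0.070 (adjusted p = 9.2e-05) with paclitaxel and −0.64 ± 0.070 (adjusted p = 7.2e-08) with the combination, and the step from paclitaxel to the combination was −0.22 ± 0.072 (adjusted p = 0.0275). That last call was lost without paclitaxel 1, paclitaxel 4, combination 1 or combination 2 (adjusted p 0.115, 0.0903, 0.0618 and 0.0837). RAD51D shares 8.0% of its exon bases with the read-through gene RAD51L3-RFFL on the same strand.

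RAD51C, a subunit of the same complex as RAD51D, was −0.17 ± 0.060 (adjusted p = 0.0428) with paclitaxel and 0.11 with the combination (adjusted p = 0.149), and it was higher in the combination than with paclitaxel by 0.28 ± 0.060 (adjusted p = 0.00106). The paclitaxel call was lost without afatinib 1, paclitaxel 2, 3 or 4, combination 1 or 2 or DMSO 1, 2 or 4 (adjusted p 0.051 to 0.122). Its value was 0.06 with log2 RNA concentration in place of the set and 0.05 in the authors' deposited log2 table, analysed with limma. RAD51AP1, which helps a strand to invade duplex DNA, had 66.2, 65.9, 54.96 and 60.9 CPM in afatinib libraries, 57.1, 56.6, 46.3 and 46.1 CPM in paclitaxel libraries and 61.6, 57.5, 48.05 and 48.02 CPM in combination libraries, against 66.1, 61.98, 59.9 and 53.8 CPM in DMSO libraries. Both paclitaxel and combination libraries stayed below the DMSO libraries of their own set. RAD51AP1 changed by −0.24 ± 0.056 (adjusted p = 0.00327) with paclitaxel and −0.17 ± 0.055 (adjusted p = 0.015) with the combination. The second call was lost without combination 2 or DMSO 3 (adjusted p 0.0556 and 0.0927) and with library totals (0.0642). With log2 RNA concentration in place of the set RAD51AP1 was −0.13 with paclitaxel (adjusted p = 0.204) and −0.06 with the combination (0.532). In the authors' deposited log2 table, by limma, it was −0.097 with paclitaxel (adjusted p = 0.476) and −0.045 with the combination (0.749).

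RAD54L, a DNA translocase of strand invasion, had 17.5, 18.3, 20.6 and 20.9 CPM in afatinib libraries, 14.3, 15.2, 14.1 and 15.8 CPM in paclitaxel libraries and 14.5, 14.9, 15.1 and 14.6 CPM in combination libraries, against 14.6, 17.4, 16.98 and 16.8 CPM in DMSO libraries. Only afatinib libraries stood apart, all above DMSO, and the combination libraries were all below the afatinib libraries. RAD54L changed by 0.23 ± 0.070 (adjusted p = 0.0222) with afatinib and differed between combination and afatinib by −0.39 ± 0.071 (adjusted p = 0.000178). The first call was lost without afatinib 3, afatinib 4 or DMSO 1 (adjusted p 0.0744, 0.0814 and 0.0991), and 25.1% of the gene's exon bases are shared with LRRC41 on the opposite strand. RAD54B, its relative, fell with the combination (−0.33 ± 0.086, adjusted p = 0.00367), as did XRCC3 (−0.22 ± 0.063, adjusted p = 0.00765), the partner of RAD51C. XRCC3 shares 76.7% of its exon bases with KLC1 on the opposite strand, and the strand setting of the counting is not given in the sources used here, so its reads are uncertain. PARPBP, a factor that restrains recombination, rose with the combination (0.21 ± 0.073, adjusted p = 0.0239). That call was lost without combination 2, combination 3, DMSO 1 or DMSO 4 (adjusted p 0.0681, 0.0939, 0.051 and 0.0799). XRCC2, a subunit of the same complex as RAD51D, was not called in any treatment comparison tested (−0.04, 0.02 and −0.09 with afatinib, paclitaxel and the combination). RAD52, which anneals single strands, was not either, at 0.20 ± 0.082 with the combination (adjusted p = 0.0546, and 0.0238 with the replicate block). With the block RAD52 was also called between combination and afatinib (adjusted p = 0.0431), and XRCC3 and RAD54B between combination and paclitaxel (adjusted p = 0.034 and 0.0281).

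Of the 5 end-resection genes, the 2 long-range nucleases fell most. EXO1 (chr1:241847967-241895148, plus strand, GENCODE v29 on GRCh38), an exonuclease that chews back one strand from the break, had 71.8, 75.9, 66.3 and 61.3 CPM in afatinib libraries, 44.7, 45.3, 45.05 and 42.1 CPM in paclitaxel libraries and 43.7, 42.7, 38.05 and 40.1 CPM in combination libraries, against 72.6, 75.9, 66.04 and 60.1 CPM in DMSO libraries. Paclitaxel and combination libraries were all below DMSO, and afatinib libraries overlapped with it. EXO1 stood at 0.647 times its DMSO level with paclitaxel (−0.63 ± 0.056, adjusted p = 1.74e-08) and at 0.600 times with the combination (−0.74 ± 0.056, adjusted p = 1.62e-10). DNA2, the nuclease and helicase that resects in parallel to EXO1, had 40.9, 42.97, 50.3 and 50.3 CPM in afatinib libraries, 31.5, 34.7, 36.3 and 40.6 CPM in paclitaxel libraries and 27.2, 25.8, 31.7 and 35.5 CPM in combination libraries, against 46.8, 42.8, 53.4 and 56.3 CPM in DMSO libraries. The combination libraries were the lowest of each set, and the fall was −0.47 ± 0.059 (adjusted p = 2.16e-06) with paclitaxel and −0.73 ± 0.059 (adjusted p = 4.37e-10) with the combination. Between combination and paclitaxel DNA2 differed by −0.26 ± 0.060 (adjusted p = 0.00249).

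RBBP8 encodes CtIP, which starts resection together with the MRE11 complex, and had 88.6, 87.2, 66.3 and 63.9 CPM in afatinib libraries, 68.4, 67.9, 56.4 and 58.1 CPM in paclitaxel libraries and 65.4, 62.1, 55.5 and 52.2 CPM in combination libraries, against 89.7, 86.97, 75.2 and 60.4 CPM in DMSO libraries. Within each set both paclitaxel and combination libraries were below DMSO, and across sets they overlapped. The change was −0.31 ± 0.062 (adjusted p = 0.000628) with paclitaxel and −0.40 ± 0.061 (adjusted p = 1.01e-05) with the combination. With log2 RNA concentration in place of the set the paclitaxel value was −0.15 (adjusted p = 0.138). In the authors' deposited log2 table the values were −0.07 with paclitaxel (adjusted p = 0.58) and −0.19 with the combination (adjusted p = 0.113), by limma. RAD50, the ATPase of the MRE11 complex, rose with afatinib (0.19 ± 0.052, adjusted p = 0.0105) and with the combination (0.20 ± 0.052, adjusted p = 0.00314), and NBN, the third subunit of that complex, was not called in any treatment comparison tested (−0.09 with afatinib, −0.09 with paclitaxel and 0.003 with the combination).

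Of the 7 genes that dissolve or cut joint molecules, 3 fell with paclitaxel, and 4 fell and 2 rose with the combination. Across all tested genes, 11.9% fell with paclitaxel, and 19.5% fell and 18.5% rose with the combination. BLM, the helicase of the dissolvasome, had 28.6, 28.6, 33.2 and 32.2 CPM in afatinib libraries, 18.3, 20.8, 24.1 and 22.8 CPM in paclitaxel libraries and 18.6, 19.02, 23.9 and 25.5 CPM in combination libraries, against 27.7, 28.6, 33.2 and 31.8 CPM in DMSO libraries. Both paclitaxel and combination libraries were all below DMSO and overlapped with each other, with changes of −0.50 ± 0.062 (adjusted p = 1.85e-06) and −0.49 ± 0.061 (adjusted p = 5.75e-07). RMI1, a scaffold of the same complex, had 35.9, 33.5, 30.6 and 31.3 CPM in afatinib libraries, 24.9, 25.2, 22.5 and 21.5 CPM in paclitaxel libraries and 25.5, 24.9, 21.5 and 20.9 CPM in combination libraries, against 33.9, 30.7, 33.4 and 30.7 CPM in DMSO libraries. Its pattern was the same, with paclitaxel at −0.45 ± 0.062 (adjusted p = 7.26e-06) and the combination at −0.48 ± 0.061 (adjusted p = 8.84e-07).

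RMI2 (chr16:11249619-11381662, plus strand), a small subunit of the dissolvasome, had the largest fall of the 41 members. It had 8.35, 9.47, 7.38 and 6.87 CPM in afatinib libraries, 4.61, 4.08, 4.18 and 4.37 CPM in paclitaxel libraries and 3.21, 3.21, 3.19 and 2.23 CPM in combination libraries, against 8.03, 9.51, 8.97 and 7.77 CPM in DMSO libraries. The 3 levels did not overlap: combination libraries were lowest, paclitaxel libraries next, and DMSO libraries, which overlapped with afatinib, highest. RMI2 stood at 0.501 times its DMSO level with paclitaxel (−0.998 ± 0.11, adjusted p = 2.41e-07) and at 0.344 times with the combination (−1.54 ± 0.11, adjusted p = 5.51e-11). The combination differed from paclitaxel by −0.54 ± 0.12 (adjusted p = 0.00138). TOP3A, the topoisomerase of the complex, was −0.14 with paclitaxel (adjusted p = 0.0533, and 0.0362 with the replicate block) and fell with the combination (−0.27 ± 0.052, adjusted p = 0.00019).

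EME1 and GEN1, which cut joint molecules, rose with the combination; their values by library are given because of that direction, seen in the data. EME1 (chr17:50373220-50381483, plus strand), the partner of the nuclease MUS81, had 13.3, 12.1, 12.5 and 15.6 CPM in afatinib libraries, 12.8, 14.5, 12.7 and 14.7 CPM in paclitaxel libraries and 18.5, 17.3, 16.5 and 16.9 CPM in combination libraries, against 10.9, 11.7, 11.6 and 13.2 CPM in DMSO libraries. The 4 combination libraries were above all 12 others. EME1 changed by 0.55 ± 0.083 (adjusted p = 8.82e-06) with the combination, by 0.21 with paclitaxel (adjusted p = 0.0815) and by 0.18 with afatinib (adjusted p = 0.144). It shares 16.4% of its exon bases with LRRC59 on the opposite strand. GEN1, a resolvase that cuts Holliday junctions, had 19.4, 23.3, 32.7 and 32.4 CPM in afatinib libraries, 19.04, 26.3, 23.8 and 28.8 CPM in paclitaxel libraries and 29.1, 29.3, 36.8 and 37.98 CPM in combination libraries, against 17.4, 17.03, 27.9 and 28.7 CPM in DMSO libraries. All combination libraries were above all DMSO libraries, with a change of 0.57 ± 0.10 (adjusted p = 9.8e-05). MUS81 itself was not called in any treatment comparison tested (0.06, −0.18 and −0.03 with afatinib, paclitaxel and the combination), although its adjusted p against DMSO with paclitaxel was 0.0498 with the replicate block. Of its exon bases 14.1% are shared with CFL1 and EFEMP2 on the opposite strand.

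**Figure D2:**
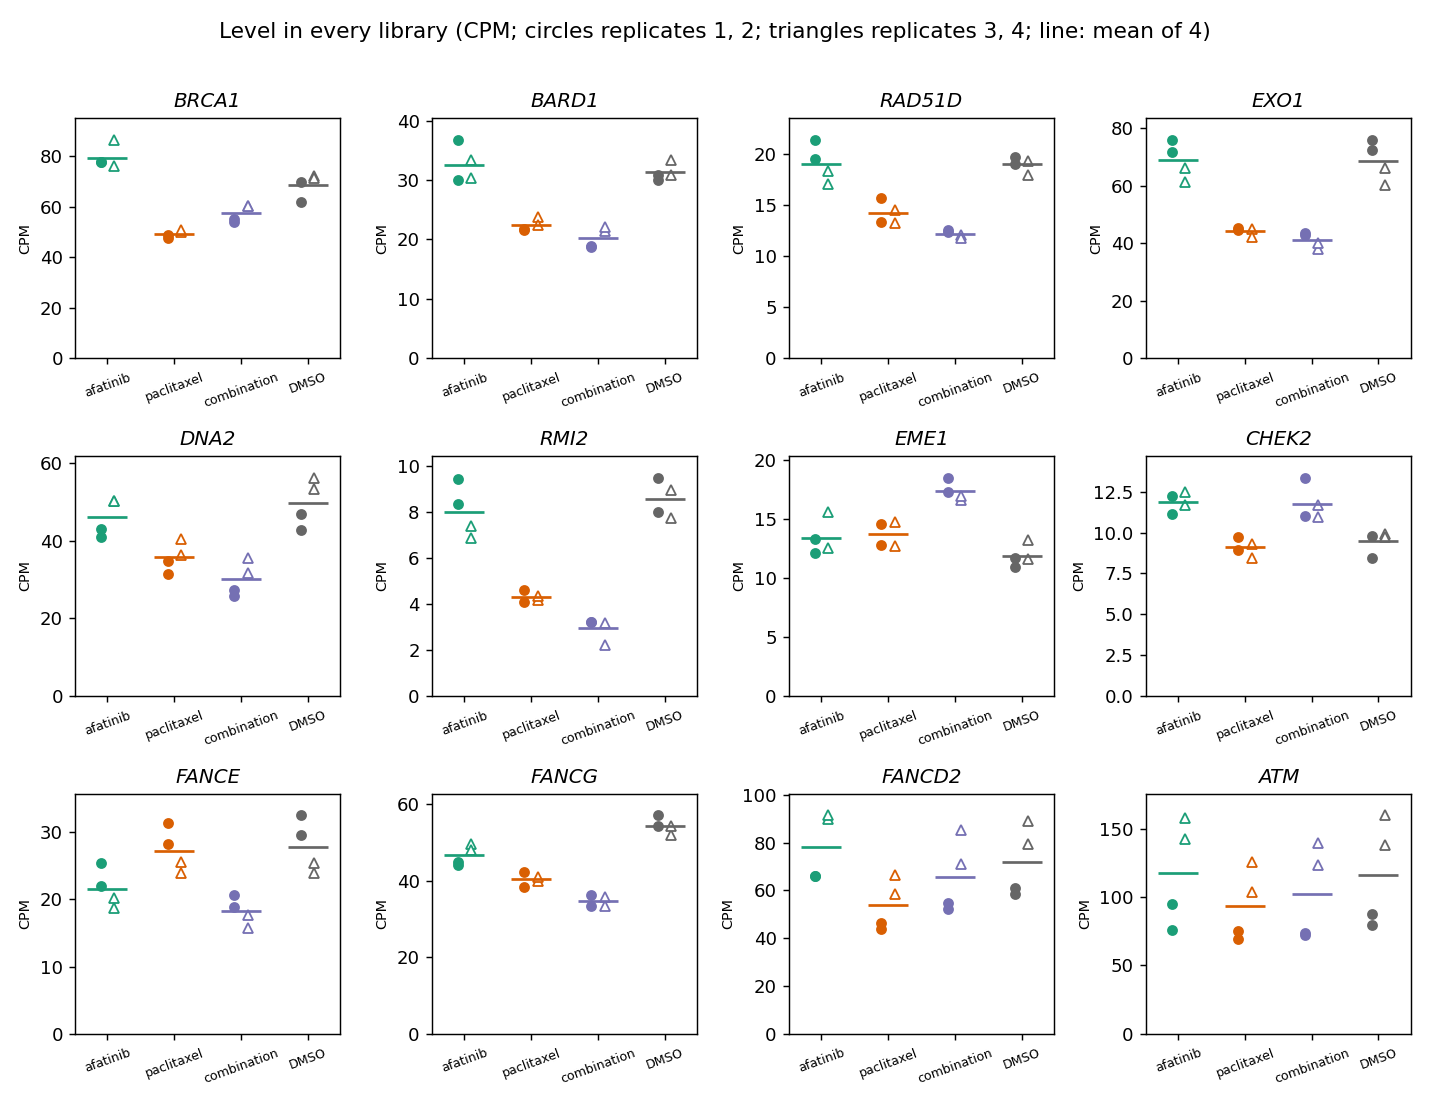
CPM in every library (y axis from 0) of 12 members by group, with circles for replicates 1 and 2, triangles for replicates 3 and 4 and a line at the mean of 4 libraries. RMI2 libraries lie between 2.23 and 3.21 CPM in the combination and between 7.77 and 9.51 CPM in DMSO, EME1 combination libraries lie above all others, and ATM differs more between the sets than between treatments.

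Of the 4 damage kinases, CHEK1 and CHEK2 moved in opposite directions in the combination. CHEK1, the kinase that slows replication when forks stall, had 87.5, 81.2, 67.9 and 73.2 CPM in afatinib libraries, 80.7, 74.9, 69.1 and 62.7 CPM in paclitaxel libraries and 69.8, 66.8, 60.8 and 57.9 CPM in combination libraries, against 88.4, 82.02, 79.3 and 73.3 CPM in DMSO libraries. The combination libraries were all below DMSO, and the paclitaxel libraries were below DMSO within each set. The change was −0.34 ± 0.055 (adjusted p = 2.11e-05) with the combination and −0.17 ± 0.055 (adjusted p = 0.0289) with paclitaxel. The paclitaxel call was lost without paclitaxel 2, paclitaxel 4, DMSO 1 or DMSO 3 (adjusted p 0.0788, 0.106, 0.0792 and 0.0997). It was also lost with library totals (adjusted p = 0.104), with only the 2 groups in the fit (0.0756) and with both set and concentration (0.203). Its value was −0.07 with log2 RNA concentration in place of the set (adjusted p = 0.463) and −0.03 in the authors' deposited log2 table by limma (adjusted p = 0.805), where the combination was −0.21 (adjusted p = 0.0652). CHEK2, the kinase that ATM activates at breaks, had 11.1, 12.2, 12.5 and 11.7 CPM in afatinib libraries, 8.93, 9.76, 9.28 and 8.44 CPM in paclitaxel libraries and 11.04, 13.4, 11.7 and 10.96 CPM in combination libraries, against 8.46, 9.82, 9.90 and 9.77 CPM in DMSO libraries. Afatinib and combination libraries were all above DMSO, and paclitaxel overlapped with it. CHEK2 rose by 0.33 ± 0.083 (adjusted p = 0.00708) with afatinib and by 0.31 ± 0.083 (adjusted p = 0.00421) with the combination.

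ATM, the kinase that answers double-strand breaks, had 75.7, 94.9, 143 and 158 CPM in afatinib libraries, 69.05, 75.4, 104 and 126 CPM in paclitaxel libraries and 73.7, 72.1, 123 and 140 CPM in combination libraries, against 87.6, 79.7, 138 and 160 CPM in DMSO libraries. Replicates 3 and 4 were the high ones in every group, and within each set the paclitaxel libraries were below DMSO. ATM changed by −0.29 ± 0.075 (adjusted p = 0.00628) with paclitaxel and −0.19 ± 0.075 (adjusted p = 0.049) with the combination. The combination call was lost without afatinib 2, 3 or 4, paclitaxel 1 or 4, combination 1, 2 or 3 or DMSO 1, 2 or 4 (adjusted p 0.0511 to 0.166) and with DESeq2 (0.0589). ATR, which answers stalled forks, was called, among the treatment comparisons tested, only between combination and afatinib (0.19 ± 0.063, adjusted p = 0.0278), lost without afatinib 1, afatinib 4, combination 1 or combination 4 (adjusted p 0.0775, 0.0538, 0.0568 and 0.106). With log2 RNA concentration in place of the set, ATR instead fell by 0.27 with paclitaxel and by 0.20 with the combination (adjusted p = 0.0136 and 0.0446).

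Of the 9 genes of the Fanconi core complex and its ubiquitin-conjugating enzyme, 2 fell with afatinib (FANCE, FANCG), 2 with paclitaxel (FANCC, FANCG) and 3 with the combination (FANCA, FANCE, FANCG), in which FANCM rose. Over all tested genes 10.1% fell with afatinib and 11.9% with paclitaxel. With the combination 38% of all tested genes were called, 19.5% lower and 18.5% higher, so the 4 calls among 9 genes there stand near the background. FANCG, a scaffold of the core complex, had 44.8, 43.98, 49.7 and 48.1 CPM in afatinib libraries, 42.3, 38.4, 39.9 and 40.9 CPM in paclitaxel libraries and 36.2, 33.5, 33.4 and 35.6 CPM in combination libraries, against 57.03, 54.2, 52.04 and 54.3 CPM in DMSO libraries. All 3 treated groups were below every DMSO library. The change was −0.22 ± 0.056 (adjusted p = 0.00662) with afatinib, −0.43 ± 0.057 (adjusted p = 4.82e-06) with paclitaxel and −0.65 ± 0.057 (adjusted p = 1.58e-09) with the combination. With library totals the afatinib value was −0.145 (adjusted p = 0.112). FANCE, the subunit that links the core complex to FANCD2, had 25.4, 22.02, 20.2 and 18.8 CPM in afatinib libraries, 31.3, 28.2, 25.5 and 23.9 CPM in paclitaxel libraries and 20.7, 18.9, 17.6 and 15.7 CPM in combination libraries, against 32.5, 29.5, 23.99 and 25.4 CPM in DMSO libraries. Combination libraries were all below DMSO, afatinib libraries were below DMSO within each set, and paclitaxel libraries overlapped with it. FANCE changed by −0.36 ± 0.066 (adjusted p = 0.000357) with afatinib and −0.61 ± 0.067 (adjusted p = 7.23e-08) with the combination, and was −0.03 with paclitaxel (adjusted p = 0.815).

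FANCM, the translocase that anchors the core complex on DNA, had 26.3, 32.2, 43.4 and 40.3 CPM in afatinib libraries, 24.4, 27.8, 34.8 and 34.99 CPM in paclitaxel libraries and 30.6, 34.7, 43.2 and 49.2 CPM in combination libraries, against 25.5, 29.1, 39.98 and 43.7 CPM in DMSO libraries. Combination libraries were above DMSO in replicates 1 and 2 and overlapped with it in replicates 3 and 4. The rise was 0.20 ± 0.072 (adjusted p = 0.0306), and it was lost without combination 2, combination 4 or DMSO 1 (adjusted p 0.0916, 0.0945 and 0.113). With log2 RNA concentration in place of the set its value was −0.07. In the authors' deposited log2 table it was −0.001 by limma. FANCM was higher in the combination than with paclitaxel by 0.36 ± 0.073 (adjusted p = 0.000597). With the replicate block it was also called lower with paclitaxel (−0.16, adjusted p = 0.0328) and higher in the combination than with afatinib (0.15, adjusted p = 0.0371). FANCC, also in the core, fell with paclitaxel (−0.28 ± 0.068, adjusted p = 0.00367) and was −0.16 with the combination (adjusted p = 0.0636, and 0.0165 with the replicate block). FANCA fell with the combination (−0.28 ± 0.079, adjusted p = 0.00739) and was −0.22 with paclitaxel (adjusted p = 0.0526, and 0.00414 with the replicate block), but 23.6% of its exon bases are shared with ZNF276 on the opposite strand. FANCB, FANCF, FANCL, the ubiquitin ligase subunit, and UBE2T, the conjugating enzyme (−0.07, −0.09 and 0.01 with afatinib, paclitaxel and the combination), were not called against DMSO in any treatment. With the replicate block FANCB and FANCF were called lower in the combination (adjusted p = 0.0394 and 0.0282). FANCL shares 19.7% of its exon bases with VRK2 and AC007250.1, and FANCF 11.3% with GAS2, all on the opposite strand.

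FANCD2 and FANCI form the clamp that receives the ubiquitin. FANCD2 had 66.2, 66.1, 89.8 and 91.3 CPM in afatinib libraries, 43.8, 46.4, 58.3 and 66.2 CPM in paclitaxel libraries and 52.4, 54.7, 70.9 and 85.1 CPM in combination libraries, against 60.8, 58.3, 79.3 and 89.1 CPM in DMSO libraries. Paclitaxel libraries were the lowest of each set, and combination libraries lay above them in each set and below DMSO in replicates 1 and 2. FANCD2 changed by −0.42 ± 0.061 (adjusted p = 1.6e-05) with paclitaxel, by −0.13 with the combination (adjusted p = 0.0893, and 0.0286 with the replicate block), and was higher in the combination than with paclitaxel by 0.29 ± 0.061 (adjusted p = 0.000999). FANCI had 69.9, 71.5, 94.2 and 95.5 CPM in afatinib libraries, 60.1, 66.02, 72.2 and 85.05 CPM in paclitaxel libraries and 66.2, 63.6, 75.5 and 80.4 CPM in combination libraries, against 80.6, 76.2, 98.7 and 104 CPM in DMSO libraries. Both paclitaxel and combination libraries were below the DMSO libraries of their own set, with changes of −0.34 ± 0.058 (adjusted p = 0.000107) and −0.33 ± 0.057 (adjusted p = 6.35e-05).

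The combination was next set against each single drug. These comparisons share the combination libraries with each other and with the comparison against DMSO. Against afatinib, 24 members were lower and 3 higher in combination libraries, with a median log2 change of −0.215, where 14.3% of all tested genes were lower and 13.1% higher. The largest differences were those of RMI2 (−1.44 ± 0.11, adjusted p = 5.42e-10), EXO1 (−0.74 ± 0.056, adjusted p = 4.08e-10) and BARD1 (−0.69 ± 0.069, adjusted p = 4.13e-08), and the 3 higher members were EME1 (0.37 ± 0.083, adjusted p = 0.00128), GEN1 (0.32 ± 0.10, adjusted p = 0.0185) and ATR. Without afatinib 1 only 1 of the 3 was still called, and with the replicate block 5 were. FANCL (−0.26 ± 0.074, adjusted p = 0.00956) and FANCF (−0.34 ± 0.089, adjusted p = 0.00597) were called lower here and in no other of these comparisons. The calls of PALB2, FANCE and GEN1 were lost without afatinib 1 (adjusted p 0.0518, 0.0506 and 0.0683) and that of FANCL without combination 2 (0.0537). That of FANCA was lost without afatinib 1, 3 or 4 or combination 1 or 3 (0.0509 to 0.117), and that of ATM without afatinib 2 or 4, combination 1, 2 or 3 or DMSO 1 or 2 (0.0527 to 0.189).

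Against paclitaxel, 6 members were lower and 9 higher in combination libraries with a median of 0.011, where 11.6% of all tested genes were lower and 12.6% higher. The lower ones were FANCE (−0.58 ± 0.067, adjusted p = 8.54e-07), RMI2, DNA2, FANCG (−0.22 ± 0.057, adjusted p = 0.0063), RAD51D and CHEK1. The higher ones were GEN1 (0.43 ± 0.10, adjusted p = 0.00307), CHEK2 (0.37 ± 0.084, adjusted p = 0.00209), FANCM, EME1, FANCD2, RAD51C, PARPBP, BRCA1 and RAD50. The call of CHEK1 was lost without paclitaxel 1 or 3 or combination 2 or 4 (adjusted p 0.0556 to 0.101), and that of PARPBP without paclitaxel 1 or 4 or combination 2 or 3 (0.0515 to 0.0751). That of RAD50 was lost without any 1 of the paclitaxel libraries or combination 1, 3 or 4 (0.0509 to 0.113).

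**Figure D3:**
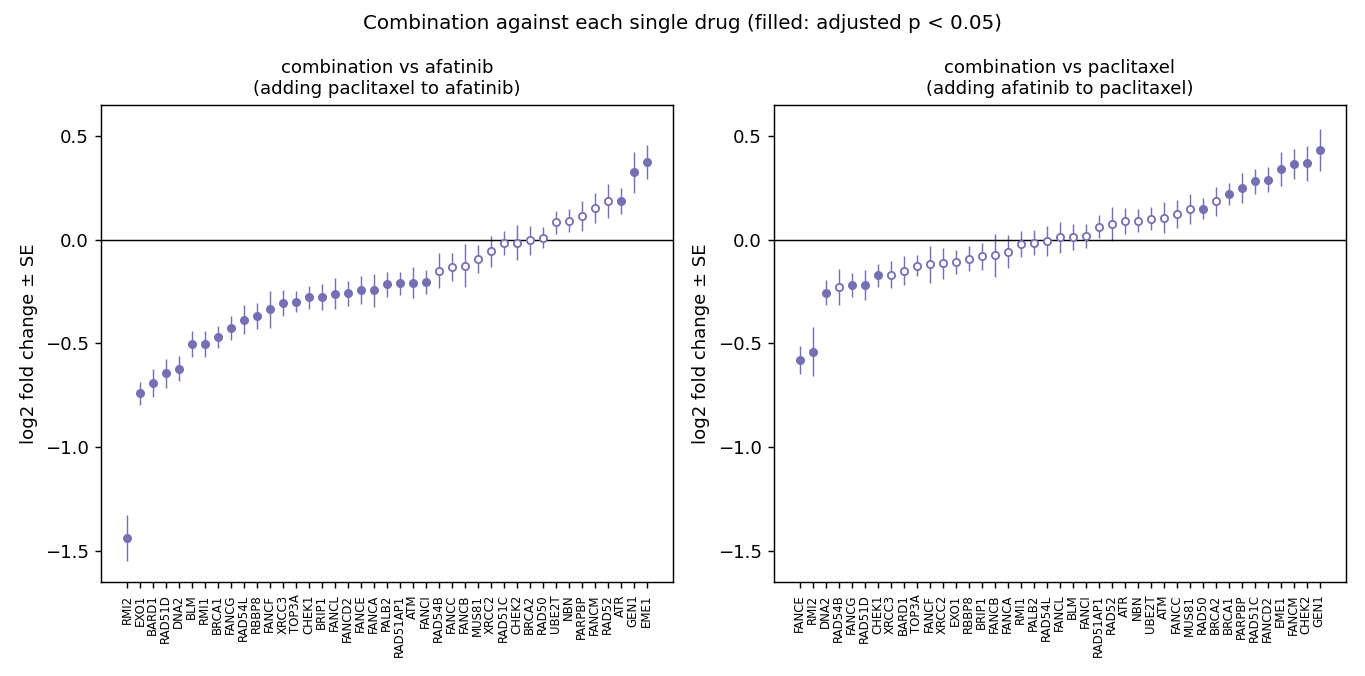
Log2 fold change (y axis, ± SE) of the 41 members in combination libraries against afatinib libraries (left) and against paclitaxel libraries (right), each ordered by size, with filled points at an adjusted p under 0.05. The left panel has 24 filled points below 0 and 3 above, with RMI2 at −1.44; the right panel has 6 below and 9 above, from FANCE at −0.58 to GEN1 at 0.43.

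The interaction, the combination's change minus the sum of both single-drug changes, asked whether the drugs together differed from their sum on the log2 scale. None of the 41 members was called by edgeR's quasi-likelihood test (smallest adjusted p = 0.157), where 0.884% of all tested genes were called, 0.495% lower and 0.389% higher. At an unadjusted p under 0.05, 7 members were lower and 3 higher, with no share of all genes at that threshold beside them. DESeq2 called 0 members and 2.04% of all tested genes. The fit with the replicate block called 1 member, FANCM (0.32, adjusted p = 0.0266), and 2.78% of all tested genes. FANCM was also the member with the smallest p with the set term (0.32 ± 0.10, adjusted p = 0.157). RMI2 had the most negative value (−0.44 ± 0.16, adjusted p = 0.204).

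Several members differed more between the 2 sets of replicates than between treatments. Between replicates 3 and 4 and replicates 1 and 2, 11 members were lower and 17 higher, where 33.3% of all tested genes were lower and 36.2% higher. ATM (0.79 ± 0.053), FANCA (0.61 ± 0.056), BRCA2 (0.60 ± 0.049) and ATR (0.59 ± 0.045) were the most raised, and RAD51C (−0.48 ± 0.042), UBE2T (−0.43 ± 0.040) and PARPBP (−0.43 ± 0.052) the most lowered. Across the 41 members this difference rose with the counted gene length (Spearman's rho = 0.59, a description over genes that share the same 16 libraries). Within a set the labelled concentration also moved with treatment: in replicates 1 and 2 it averaged 1002 ng/µl for afatinib, 388 ng/µl for paclitaxel and 623 ng/µl for the combination, against 1171 ng/µl for DMSO. In replicates 3 and 4 these means were 184 ng/µl for afatinib, 252 ng/µl for paclitaxel and 143 ng/µl for the combination, against 311 ng/µl for DMSO. With both the set and log2 concentration in the fit, 16 members fell with paclitaxel and 19 fell and 3 rose with the combination. Over all tested genes that fit called 10.7% with paclitaxel and 22.8% with the combination, against 20.5% and 38% with the set alone.

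**Figure D4:**
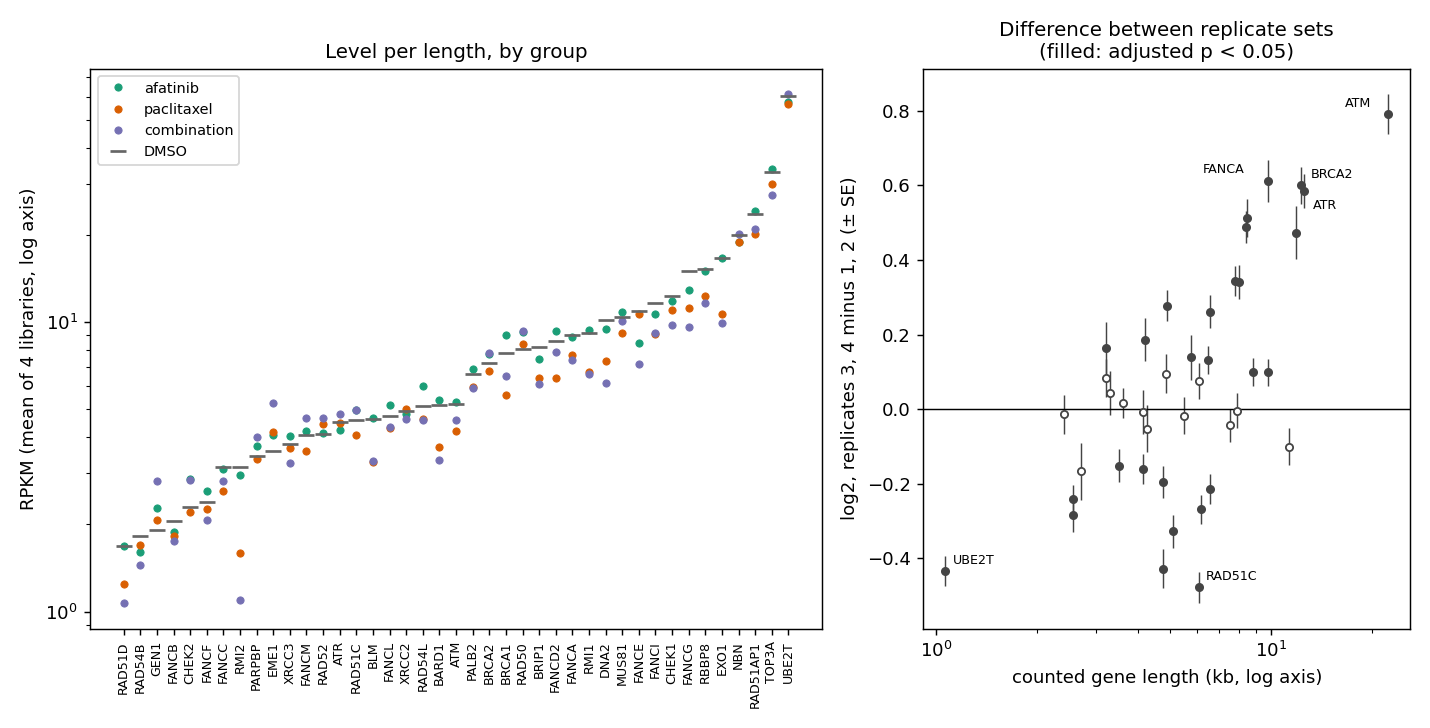
Left, mean RPKM of 4 libraries (log axis) of each member by treatment, ordered by the DMSO level (bars), from RAD51D at 1.68 to UBE2T at 60.3 RPKM. Right, log2 difference of replicates 3 and 4 minus replicates 1 and 2 (± SE) against counted gene length in kilobases (log axis). Filled points had an adjusted p under 0.05. ATM, FANCA, BRCA2 and ATR are highest. Not every long gene was raised: RAD51D (11304 bases), longer than FANCA (9736 bases), stood at 0.932 times in replicates 3 and 4.

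Other genes of the same and neighbouring pathways, taken from lists of known pathway genes, give the setting of these changes. For comparison with the counts of each list, 10.1% of all tested genes fell and 9% rose with afatinib. With paclitaxel 11.9% fell and 8.65% rose, and with the combination 19.5% fell and 18.5% rose. Of 38 other recombination and Fanconi genes tested, 2 fell and 1 rose with afatinib, 9 fell with paclitaxel, and 11 fell and 7 rose with the combination. The list's medians were −0.06 with paclitaxel and 0.02 with the combination. Its share of rises with the combination stood near the 18.5% of all tested genes. TOPBP1, the activator of ATR, was −0.38 ± 0.057 (adjusted p = 2.53e-05) with paclitaxel and −0.67 ± 0.057 (adjusted p = 9.49e-10) with the combination. MMS22L, which acts at broken replication forks, was −0.38 ± 0.058 (adjusted p = 3.52e-05) and −0.43 ± 0.058 (adjusted p = 1.54e-06) in the same order. Of 17 end-joining genes, 4 fell and 3 rose with paclitaxel and 6 fell and 5 rose with the combination: POLQ, the polymerase of microhomology joining, was higher (0.58 ± 0.073, adjusted p = 5.84e-07 with the combination), and PRKDC, the kinase of the classical route, lower (−0.50 ± 0.079, adjusted p = 1.85e-05). Of 7 mismatch repair genes, 2 fell and 1 rose in both.

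Most of the DNA replication list was lower with paclitaxel and with the combination. Of its 30 genes, 8 fell with afatinib, 24 with paclitaxel and 27 with the combination, and the medians were −0.11, −0.44 and −0.62. MCM6, a subunit of the replicative helicase, was −0.76 ± 0.067 (adjusted p = 1.21e-08) with paclitaxel and −1.21 ± 0.067 (adjusted p = 6.83e-13) with the combination. Of 25 G2/M genes, 13 rose and 7 fell with paclitaxel and 20 rose and 4 fell with the combination, with medians of 0.20 and 0.59. CCNB1, the mitotic cyclin, was 0.69 ± 0.059 (adjusted p = 7.57e-09) and 1.1 ± 0.059 (adjusted p = 4.24e-13). Of 13 E2F and pocket protein genes, 4 fell with paclitaxel, and 6 fell and 2 rose with the combination, with medians of −0.08 and −0.23. The most lowered of them was E2F1, an activator of S phase genes, at −0.93 ± 0.063 (adjusted p = 2.43e-10) with paclitaxel and −1.51 ± 0.064 (adjusted p = 1.32e-14) with the combination. The part of these shifts in the changes of the 41 members was not tested.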

How the data were processed

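RNA of 16 libraries of MDA-MB-231 cells was sequenced. The authors deposited raw gene counts, for which the submitters' processing notes name the build hg38, STAR 2.7.5b, featureCounts and Subread 2.0.1; strand setting and annotation are not given in the sources used here. They also deposited a log2 table described by its header as corrected for RNA concentration, used only as an alternative. The Length column gave RPKM. Another 2 numeric columns were not used. A further 171 genes have an identifier and no symbol, with 0.036 to 0.0462% of each library's counts, and were tested by identifier.

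Genes were kept with filterByExpr (minimum count 10, minimum total 15), scaled by TMM and tested with edgeR 4.0.16 in R 4.3.3 (robust quasi-likelihood F-test, group and concentration set as terms, all 16 libraries in 1 fit, common biological coefficient of variation 7.41%). Each SE was derived from the log2 fold change and its F statistic, as their ratio after taking the root of F. The pipeline was tested on simulated data. Library totals of 28.4M to 48.1M counts limit precision for low genes.

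Libraries of the same replicate number deviated together from their group means (r 0.37 to 0.70, median 0.59, 24 pairs). These deviations include the difference between the concentration sets, and libraries of 1 set with different numbers were not compared. The values therefore cannot show whether the numbers pair the libraries, and the block fit is an alternative. Other alternatives were DESeq2 1.42.0, other scalings, no filter, other handling of set and concentration, subsets of libraries, the authors' log2 table with limma 3.58.1, and each library left out. No library was a copy of another (χ² per gene 7.33 to 380).

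Members, roles and gene lists were chosen with earlier results of these data known. Any member may be named; values by library were printed for up to 3 members per role with the smallest p over the 4 groups, with EME1 and GEN1 added after their values were seen. From each other list, up to 3 called genes with the smallest p could be named, and those printed were picked from them after their values were seen. A gene of the list of other recombination genes is not reported here and was left out of its counts. The promoters printed are those of members with library values whose window holds no exon base, a limit added after the windows were read. The 7-letter E2F core was also added then, since an 8-letter version matched only 3 members (8.33%). That version matched 2.79% of the first listed windows of all genes. Gene positions and shared exon bases come from GENCODE v29, which held all 41 members. There, 20 share no exon base with another counted gene. The same length there as in the count table was found for 30 members. For the others, FANCF among them (4269 bases counted, 2952 there), the shares rest on a gene model other than the counted one.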

Additional observations from a re-analysis of the deposited data

Results flagged for a closer look

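In 164 sets of 4 libraries, 1 for each member in each group, 3 held a library whose distance from its nearest neighbour took up more of the group's range than Dixon's critical value for 4 values allows. Chance flags about 1 in 20 where all 4 values come from 1 normal distribution. Each group of 4 here holds libraries of both concentration sets, so that rate need not apply. BRCA1 stood at 86.5 CPM in afatinib 3, with the other afatinib libraries at 76.1 to 77.7 CPM. RMI2 stood at 2.23 CPM in combination 4, with the other combination libraries at 3.19 to 3.21 CPM. CHEK2 stood at 8.46 CPM in DMSO 1, with the other DMSO libraries at 9.77 to 9.90 CPM. The calls of these genes against DMSO held without the library named.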

How the results depend on the processing

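The counts of members that fell with paclitaxel (18) and fell or rose with the combination (21 and 6) were within 1.5 times of these values with DESeq2, DESeq2's size factors, library totals, no filter on low counts, the replicate block and only the 2 groups compared. The set mattered most. Without the set term, afatinib gave 0 members lower and 0 higher, paclitaxel 9 lower, the combination 12 lower and 2 higher, combination against afatinib 12 lower and 1 higher, and combination against paclitaxel 2 lower and 1 higher. Calls fell over all genes too: this fit called 2.11% of all tested genes with afatinib, 3.47% with paclitaxel and 12.8% with the combination, against 19.1%, 20.5% and 38% with the set. For combination against afatinib it called 6.35%, and against paclitaxel 4.27%, where the fit with the set called 27.4% and 24.2%. With only replicates 1 and 2, afatinib gave 1 higher, the combination 3 higher, combination against afatinib 14 lower, and combination against paclitaxel 2 lower and 4 higher, with an interaction median of −0.028. With only replicates 3 and 4, afatinib gave 0 lower and 0 higher, and the combination 13 lower and 3 higher. Combination against afatinib then gave 12 lower and 0 higher, and combination against paclitaxel 2 lower and 2 higher. These subsets hold 2 libraries a group, and calls over all tested genes were fewer too. Replicates 1 and 2 called 6.94% with afatinib, 26.1% with the combination, 14.1% for combination against afatinib and 11% for combination against paclitaxel. Replicates 3 and 4 called 2.9%, 17.5%, 11.1% and 7.13% in the same order.

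With log2 RNA concentration in place of the set, 12.8% of all tested genes were called with afatinib and 25.9% for combination against afatinib (19.1% and 27.4% with the set). Among members, afatinib gave 4 lower and 2 higher, and combination against afatinib 1 higher. RAD51C was then 0.057 and ATR −0.270 with paclitaxel, and ATR −0.203 and FANCM −0.067 with the combination. With both set and concentration, chosen after seeing the data, the paclitaxel median was −0.208, the combination gave 3 higher and combination against afatinib 1 higher. That fit called 22.8% of all tested genes with the combination and 22.8% for combination against afatinib (38% and 27.4% with the set alone). The authors' deposited log2 table with limma gave 1 lower and 1 higher with afatinib, a combination median of −0.157, 13 lower and 1 higher for combination against afatinib, and 2 lower and 4 higher for combination against paclitaxel. Over all tested genes it called 6.16%, 11.7% and 12.1% in these 3 comparisons with counts, against 19.1%, 27.4% and 24.2% with edgeR and the set. With the combination against DMSO, 33 of the 41 members kept their call or lack of one in that table. It called 22.6% of all tested genes there. The paclitaxel and combination calls against DMSO that ended in it are named with their genes above. In the authors' table RAD51C was 0.046 with paclitaxel and FANCM −0.001 with the combination. The cause was not tested.

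With library totals alone, afatinib gave 1 lower and 8 higher with a median of 0.099, while over all 17991 genes it gave 808 lower and 2451 higher, against 1812 and 1620 with TMM. Combination against afatinib gave 1 higher with a median of −0.278, the interaction median was −0.079, and the sets gave 19 lower and 11 higher. Over all tested genes library totals gave 3347 lower and 1327 higher for combination against afatinib, against 2576 and 2359 with TMM. Between the sets they gave 7611 lower and 5040 higher, against 5996 and 6512 with TMM. BRCA1, RAD50 and FANCG then differed between sets by −0.020, −0.021 and −0.103. Scaling moved the median of all genes by no more than 0.081. With the replicate block 1 member rose with paclitaxel, 5 were higher in the combination than with afatinib, and 1 was called in the interaction. Of all tested genes that fit called 25.6%, 32.5% and 2.78% in the same order, in either direction. Calls that the block added are given beside the genes, and it ended none. Without a filter on low counts 1 member was called higher in the interaction, where that fit called 1.27% of its 37864 genes.

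Leaving out each library in turn gave 2 lower and 3 to 5 higher with afatinib, 16 to 21 lower and 0 to 1 higher with paclitaxel, and 18 to 21 lower and 4 to 7 higher with the combination. Combination against afatinib gave 21 to 24 lower and 1 to 4 higher, and combination against paclitaxel 4 to 7 lower and 7 to 10 higher. Of the called members, 5 of 6 held in every such fit with afatinib, 16 of 18 with paclitaxel and 22 of 27 with the combination. Depth limits RMI2, RAD54B and FANCB most, since they had the fewest counts.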
